A study of Homo sapiens with 9 samples.

Results

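The ubiquitin C-terminal hydrolases UCHL1, UCHL3, UCHL5 and BAP1 were followed in parental LC-2/ad cells (LC/2-AD in the sample labels) and in the ponatinib-resistant derivatives PR1 and PR2. Members were taken as the rows of the deposited FPKM table whose symbol is one of these 4 names. All 4 have a row of their own among 24069 rows, and no row that combines several genes holds any of them. UCHL1 was selected on its FPKM values, which were lower in PR1 and higher in PR2 than in parental cells, so its levels are given as a description without a test. The other 3 genes are its relatives. The rule that chose the set does not use their values. They were tested, although members and gene lists were chosen with earlier results of these data known.

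LC-2/ad is an established human lung adenocarcinoma line with a CCDC6-RET gene fusion, and ponatinib is an inhibitor of several tyrosine kinases, RET among them. RNA sequencing covered 9 libraries: 3 of parental cells, for which no drug is stated, 3 of PR1 and 3 of PR2, both kept in 200 nM ponatinib. Each group has libraries lettered A, B and C. Resistance and the presence of the drug therefore cannot be told apart in a comparison with parental cells. Whether PR1 and PR2 are single clones, and whether the letters are separate cultures, is not given in the sources used here, so the p-values reflect the spread among libraries alone, and that spread may be technical.

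Ubiquitin is a small protein that is joined to other proteins to mark them for the proteasome or to change what they do, and deubiquitinases take it off again. The ubiquitin C-terminal hydrolases are a small family of cysteine proteases among them. UCHL1, also called PGP9.5, cleaves ubiquitin from short adducts, is abundant in neurons and is used as a marker of neuroendocrine cells, including those of the lung. UCHL3 is its closest relative and also acts on the ubiquitin-like protein NEDD8. UCHL5 works at the proteasome, where the subunit ADRM1 holds it, and in the INO80 chromatin remodeller. BAP1 is a nuclear tumour suppressor that, with ASXL proteins, removes ubiquitin from histone H2A.

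A stretch of 30 bases just upstream of UCHL1 is shown because it holds the letters TATAAA on the opposite strand. It lies at chr4:41256887-41256916 (GRCh38.p14, plus strand, promoter sequence from RefSeq). It is printed 5′ to 3′ on the strand of UCHL1, and the capitals mark the letters TATAAA as read on the opposite strand.

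UCHL1 upstream: tctggccggcgcTTTATAgctgcagcctgg

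The match begins 29 bases before the RefSeq start of UCHL1. TATAAA, searched on both strands, occurs in 10.7% of 35116 promoter windows of 250 bases. The window of UCHL1 holds 20 CpG dinucleotides, against a median of 11 over all windows, and 67.6% of windows hold fewer. The windows of UCHL3 hold 23 and 20, and those of UCHL5 hold 22, 11 and 20. A match describes these letters and not a site in use. In RefSeq the gene UCHL1-DT starts in the same window on the opposite strand. The deposited table has a row named UCHL1-AS1, and whether both symbols name the same gene was not checked. That row is listed at 0 FPKM in all 9 libraries, while UCHL1 has a value above 0 in each. Such a 0 may also stand for an estimate that failed, so no absence is read from it.

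UCHL1 was low in parental cells, lower in PR1 and highest in PR2. FPKM, the unit of the table, counts fragments per kilobase of transcript, scaled to the mapped fragments of the library, so levels can be set side by side between genes. In parental cells UCHL1 stood at 2.44, 1.44 and 3.05 FPKM in libraries A, B and C. In PR1 it stood at 0.630, 0.540 and 0.301 FPKM. In PR2 it stood at 13.5, 9.13 and 6.28 FPKM. Every PR1 library was below every parental library, and every PR2 library was above all the others. The means were 2.31 ± 0.815, 0.490 ± 0.170 and 9.63 ± 3.63 FPKM (SD, n = 3 each). The PR2 mean was 4.17 times the parental mean and 19.6 times the PR1 mean, and the parental mean was 4.71 times that of PR1.

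On the log2(FPKM + 1) scale, used for all fitted differences here and compressing changes of low genes, UCHL1 differed by −1.13 in PR1 against parental cells, by 1.66 in PR2 against parental cells and by 2.78 in PR2 against PR1. With a pseudocount of 0.1 in place of 1 the PR1 difference was −2.01 and the difference between the derivatives 4.02. As the groups did not overlap, the same order within each letter follows from the values above and is no added support. PR2 exceeded PR1 by an FPKM ratio of 21.4 in the A libraries, 16.9 in the B libraries and 20.8 in the C libraries. PR1 was at 0.258, 0.376 and 0.0986 of parental FPKM within A, B and C. PR2 was at 5.53, 6.35 and 2.06 times parental FPKM, so the rise was smallest in C, where the parental library was highest and the PR2 library lowest. The comparisons of PR1 and PR2 with parental cells share the 3 parental libraries. In bulk cultures, fewer cells with the transcript and less transcript per cell cannot be told apart.

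**Figure D1:**
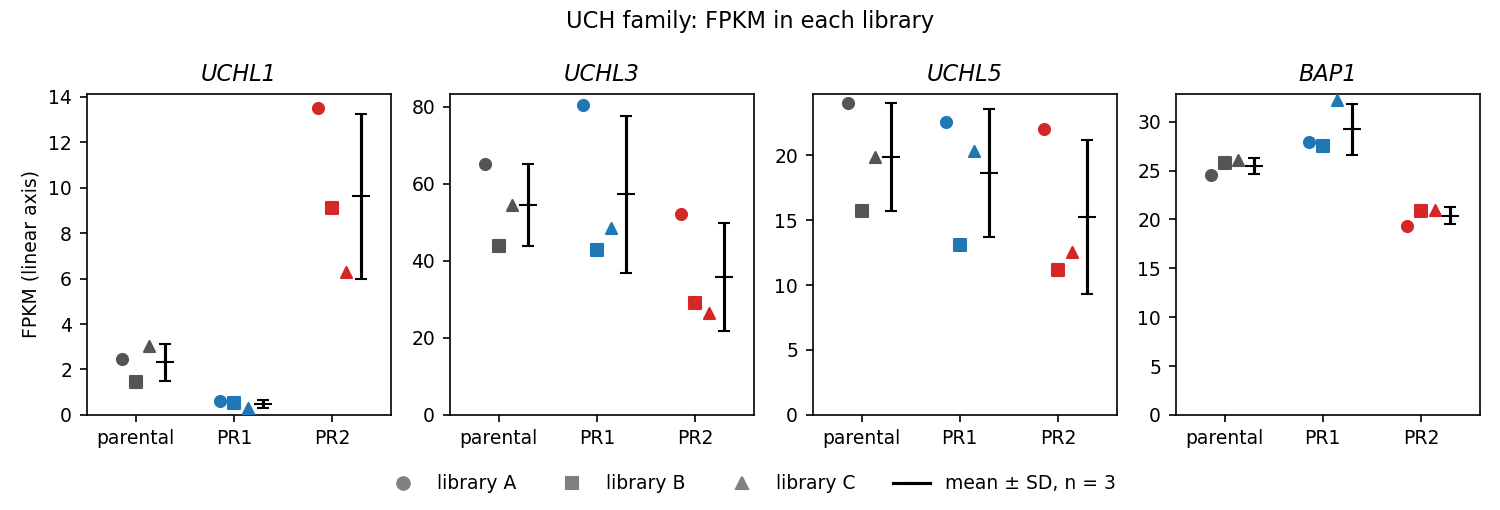
FPKM (linear axes starting at 0, 1 scale per gene) of the 4 genes in each library, coloured by group and shaped by letter, with the mean ± SD of 3 libraries beside them. UCHL1 lies between 0.301 and 0.630 FPKM in PR1 and between 6.28 and 13.5 in PR2, and the BAP1 values of the 3 groups do not overlap.

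UCHL3 was the most abundant of the family in every library. It stood at 65.1, 43.9 and 54.4 FPKM in parental A, B and C, at 80.5, 42.8 and 48.5 in PR1, and at 52.0, 29.1 and 26.6 in PR2. The A library was the highest of its group each time, and the groups overlapped. The means were 54.5 ± 10.6, 57.3 ± 20.3 and 35.9 ± 14.01 FPKM (SD, n = 3). Groups were compared with limma, a linear model fitted across all 12011 rows that passed a filter on low values, with p-values adjusted by the Benjamini-Hochberg method over those rows and a threshold of 0.05. UCHL3 did not pass it in any comparison. Its log2 difference was 0.03 ± 0.30 (SE) in PR1 against parental cells, −0.63 ± 0.30 in PR2 against parental cells and −0.67 ± 0.30 in PR2 against PR1 (limma adjusted p = 0.95, 0.16 and 0.15). The 95% intervals were −0.63 to 0.70, −1.30 to 0.03 and −1.33 to −0.0036.

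Within each letter UCHL3 was lower in PR2 than in PR1, at 0.646, 0.681 and 0.548 of its FPKM in A, B and C. PR2 was also below parental cells within each letter, at 0.799, 0.663 and 0.489. With the letter as a block the difference between PR2 and PR1 passed (−0.67, limma adjusted p = 0.011), as it did when the A libraries were left out (−0.69, limma adjusted p = 0.029) and without PR2 A (−0.96, limma adjusted p = 0.036). PR2 against parental cells passed with the block, without PR2 A and without the 3 A libraries as well (limma adjusted p = 0.012, 0.037 and 0.013).

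UCHL5 followed UCHL3 across libraries more than it followed the groups. It stood at 24.0, 15.7 and 19.9 FPKM in parental A, B and C, at 22.5, 13.1 and 20.3 in PR1, and at 22.1, 11.2 and 12.5 in PR2. The 3 groups overlapped, with means of 19.9 ± 4.16, 18.7 ± 4.94 and 15.3 ± 5.94 FPKM (SD, n = 3). UCHL5 did not pass the threshold in any comparison, with log2 differences of −0.10 ± 0.28 (SE), −0.40 ± 0.28 and −0.30 ± 0.28 in PR1 against parental, PR2 against parental and PR2 against PR1 (limma adjusted p = 0.85, 0.34 and 0.50). The 95% interval of the difference between PR2 and parental cells, −1.02 to 0.22, covers both a fall and a small rise.

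UCHL3 and UCHL5 shared a library pattern that crosses the groups. In both, A exceeded B and C in all 3 groups, a pattern seen in 1674 of 12011 tested rows (13.9%). UCHL3 in A was 1.48, 1.88 and 1.79 times its level in B in parental, PR1 and PR2 cells. UCHL5 in A was 1.53, 1.72 and 1.98 times its level in B. Their log2 values correlated at r = 0.89 over the 9 libraries, a description of points that share libraries and the letter. The SD of UCHL3 was 19.4% to 39.0% of its group mean and that of UCHL5 20.9% to 38.9%. BAP1 did not share the pattern, and its SD was 3.13% to 9.01% of its group mean.

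BAP1 was the member with the least spread and, in the fit without the letter as a block, the only tested one with a call. It stood at 24.6, 25.8 and 26.1 FPKM in parental A, B and C, at 27.9, 27.5 and 32.3 in PR1, and at 19.4, 20.8 and 20.9 in PR2. No 2 groups overlapped: every PR1 library was above the parental ones and every PR2 library below them. The means were 25.5 ± 0.798, 29.2 ± 2.63 and 20.4 ± 0.876 FPKM (SD, n = 3). BAP1 was lower in PR2 than in PR1 by a log2 difference of −0.50 ± 0.13 (SE, limma adjusted p = 0.023), with PR2 at 0.694, 0.758 and 0.649 of PR1 within A, B and C. The call was lost without PR1 C, PR2 A, PR2 B, PR2 C or the 3 A libraries (limma adjusted p reaching 0.084).

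Against parental cells BAP1 did not pass, with a log2 difference of 0.19 ± 0.13 in PR1 and −0.31 ± 0.13 in PR2 (SE, limma adjusted p = 0.38 and 0.11). The PR2 difference passed when no filter on low values was used (limma adjusted p = 0.048). Of the 3 tested genes, then, none passed in PR1 against parental cells (none at an unadjusted limma p under 0.05 either), where 15.5% of all tested rows did (7.56% higher and 7.98% lower). None passed in PR2 against parental cells (1 at an unadjusted limma p under 0.05, BAP1), against 23.4% of all rows (13.6% higher and 9.83% lower). Between PR2 and PR1, 1 of 3 passed, against 19.9% of all rows (11% higher and 8.92% lower). With the letter as a block, which pairs the libraries of PR2 and PR1, 2 of 3 passed, BAP1 and UCHL3, against 31.5% of all rows. In PR2 against parental cells UCHL3 alone passed with the block, against 34.2% of all rows. Groups that do not overlap, as those of BAP1, occurred in 31.6% of all tested rows in PR1 against parental cells (16.6% higher), in 39.9% in PR2 against parental cells (22.3% higher and 17.6% lower) and in 38.7% in PR2 against PR1 (18.2% lower).

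**Figure D2:**
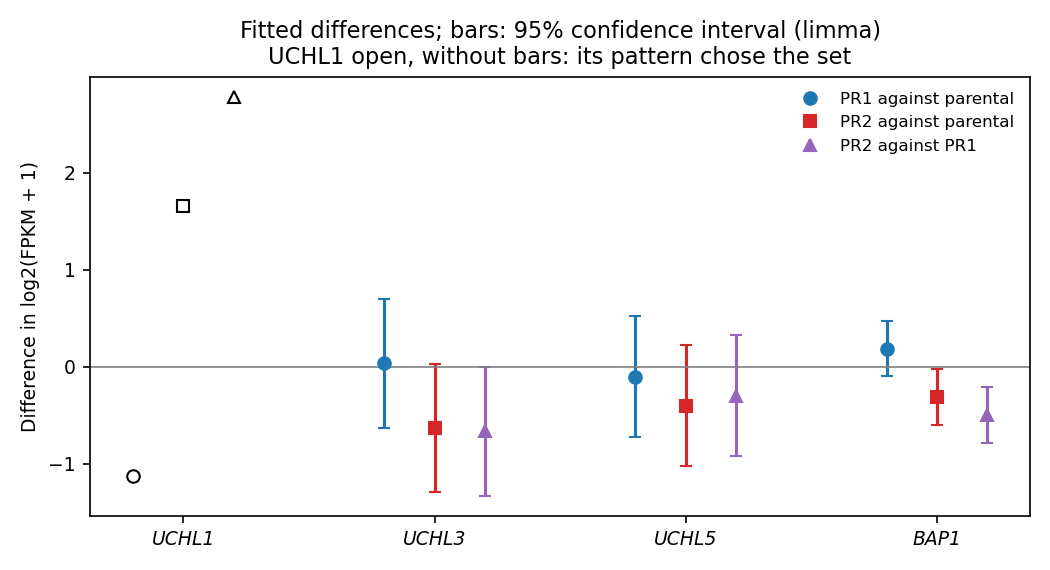
Fitted differences in log2(FPKM + 1) for the 3 comparisons, with 95% limma confidence intervals for the tested genes. UCHL1 is drawn open and without an interval. Of the intervals that leave out 0, that of BAP1 in PR2 against PR1 (−0.78 to −0.21) has its nearer end farthest from 0.

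The order of levels within the family was UCHL3, BAP1, UCHL5 and UCHL1 by mean in all 3 groups. The ranges of UCHL5 and BAP1 were apart in parental cells and PR1 and overlapped in PR2. UCHL1 and UCHL5 overlapped in PR2 as well, where UCHL1 A (13.5 FPKM) exceeded UCHL5 B and C. UCHL1 made up 1.65% to 2.95% of the summed FPKM of the 4 genes in parental cells, 0.297% to 0.644% in PR1 and 9.46% to 13.0% in PR2. UCHL3 was 17.8 to 30.6 times UCHL1 in parental libraries, 79.2 to 161 times in PR1 and 3.19 to 4.23 times in PR2. The ratio of UCHL3 to UCHL5 moved far less, from 2.12 to 3.57 over all libraries. The summed FPKM of the family ran from 66.3 in PR2 C to 132 in PR1 A.

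Cell type markers were looked at because UCHL1 marks neuroendocrine cells and neurons. Of 23 other neuroendocrine and neuronal markers with their own row, 6 were listed at 0 in every library and 3 passed the filter. CHGA, INSM1, STMN2 and GAP43 were listed at 0 throughout, SYP reached at most 0.442 FPKM and NCAM1 0.146. CHGB was at 0.355 to 0.722 FPKM in parental cells and at most 0.115 in the derivatives. The 3 that passed were the glycolytic enzyme gene ENO2 and the neuronal microtubule genes TUBB3 and MAP2.

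TUBB3, a tubulin that many carcinoma lines also carry, stood at 46.7, 15.6 and 16.9 FPKM in parental cells, 32.2, 6.53 and 8.77 in PR1 and 69.8, 97.4 and 90.0 in PR2. All PR2 libraries exceeded all others. The log2 difference was 2.67 ± 0.54 (SE) against PR1 and 1.83 ± 0.54 against parental cells (limma adjusted p = 0.0073 and 0.034), the second lost without parental B, parental C, PR2 B or PR2 C (highest limma adjusted p = 0.13). MAP2, which binds microtubules, was at 1.83, 1.34 and 2.57 FPKM in parental cells, 1.13, 1.90 and 1.48 in PR1 and 9.34, 6.38 and 5.38 in PR2, a log2 difference of 1.66 against PR1 and 1.46 against parental cells (limma adjusted p = 0.00079 and 0.0012). ENO2 passed in no comparison (3.05 to 9.09 FPKM over all libraries). Its means were 7.07 ± 2.62, 3.27 ± 0.358 and 5.48 ± 2.12 FPKM in parental, PR1 and PR2 cells (SD, n = 3). Unlike that of UCHL1, the PR2 mean was below the parental mean. The summed FPKM of the marker list, most of it TUBB3, was 25.8 to 57.8 in parental cells, 12.6 to 37.8 in PR1 and 87.9 to 109 in PR2.

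Of 12 fibroblast markers 3 passed the filter, with sums of 10.4 to 17.9 FPKM over all libraries. PDGFRA, a fibroblast receptor, passed it through the parental libraries alone (1.10, 1.53 and 1.82 FPKM) and was at most 0.811 FPKM in the derivatives, so no test is given. Of 11 blood cell markers 1 passed, CD14, with sums of 3.78 to 9.42 FPKM in parental cells and at most 2.05 in the derivatives. CD14 fell in both derivatives, by 1.55 and 1.86 on the log2 scale (limma adjusted p = 0.0033 and 0.00070). Of 7 epithelial and lung markers, EPCAM (286 to 426 FPKM), KRT8, KRT19 and NKX2-1 (at least 51.9 FPKM) were high in every library. KRT18 was only at 2.34 to 8.17 FPKM. MUC1, a mucin, had means of 233 ± 38.3, 153 ± 34.7 and 111 ± 37.8 FPKM in parental, PR1 and PR2 cells (SD, n = 3). SFTPB, a surfactant protein of the lung, was at 40.6 to 144 FPKM in parental cells, 3.46 to 6.01 in PR1 and 0.0204 to 0.0352 in PR2, with no overlap between groups.

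Ubiquitin itself and its activating enzymes come before the hydrolases. Shares of a list that passed are read here against the 15.5%, 23.4% and 19.9% of all tested rows that passed in PR1 against parental, PR2 against parental and PR2 against PR1, and against 25.7%, 34.2% and 31.5% with the letter as a block. Of 6 tested genes, 1 (16.7%) fell in PR1 against parental cells, and 1 rose and 2 fell in PR2. The PR2 split turned to 2 higher and 1 lower after quantile normalization, and a single call was left if parental B or C, or PR2 A or C, was dropped. UBA1, the main E1 enzyme that loads ubiquitin, fell in both derivatives, with means of 153 ± 15.2 FPKM in parental cells, 93.9 ± 10.3 in PR1 and 92.8 ± 6.02 in PR2 (SD, n = 3) (log2 difference −0.69 and −0.71, limma adjusted p = 0.011 and 0.0068). UBA6, the other E1 for ubiquitin, rose in PR2 against parental cells by 0.69, a call lost when any one of parental B and C or PR2 A and C was left out (highest limma adjusted p = 0.092). The ubiquitin gene UBB was higher in PR2 than in PR1 by 0.65, a call lost without PR1 C, PR2 B or PR2 C (limma adjusted p reaching 0.081).

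Deubiquitinases outside the family gave a measure of how common such changes were. Of 72 tested, 5 rose and 5 fell in PR1 against parental cells, 10 rose and 3 fell in PR2, and 5 were higher and 3 lower in PR2 than in PR1. These are 13.9%, 18.1% and 11.1% of the list, all below the shares of all rows in the fit without the block. The excess of rises in PR2 against parental cells depended on the scaling: quantile normalization gave 7 higher and 7 lower. Without a filter it was 7 and 5, without parental B 2 and 3, and without PR2 C 3 and 3. The median log2 difference was 0.12, 0.08 and −0.03, against 0.05, 0.03 and 0.0038 over all tested rows. With the letter as a block the counts were 13 and 8, 14 and 9, and 9 and 5. The share in PR1 against parental cells (21 of 72) was then above the 25.7% of all rows. Those of the other comparisons (23 and 14 of 72) stayed below 34.2% and 31.5%. USP14, which like UCHL5 sits on the proteasome, was higher in PR2 than in PR1, at 32.5, 18.4 and 23.2 FPKM against 12.2, 7.28 and 10.9 (log2 difference 1.20 ± 0.27, SE, limma adjusted p = 0.012). Every PR2 library also exceeded every parental library (13.4, 7.59 and 11.7 FPKM, log2 difference 1.11, limma adjusted p = 0.014), a call lost without parental B (limma adjusted p = 0.058).

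USP9X, a large deubiquitinase that stabilises many signalling proteins, fell in both derivatives, standing at 23.8, 16.0 and 22.5 FPKM in parental cells, 8.49, 9.01 and 11.9 in PR1 and at most 12.2 in PR2 (log2 difference −1.01 and −0.84, limma adjusted p = 0.0058 and 0.0096). STAMBPL1 rose in PR1 by 0.97, a call lost without parental A, parental B, parental C or PR1 A (highest limma adjusted p = 0.11). USP28 was lower in PR2 than in PR1 by −0.82, a call lost without PR1 B, PR1 C, PR2 B or PR2 C (limma adjusted p reaching 0.069). The count of changed deubiquitinases rested on single libraries. In PR1 against parental cells it was 3 without parental B, 2 without parental C, 4 without PR1 B or PR1 C and 6 without PR2 B or PR2 C. In PR2 against parental cells it was 5 without parental B and 6 without PR2 C. Between the derivatives it was 4 without PR1 B, 5 without PR1 C and 3 without PR2 B or PR2 C.

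**Figure D3:**
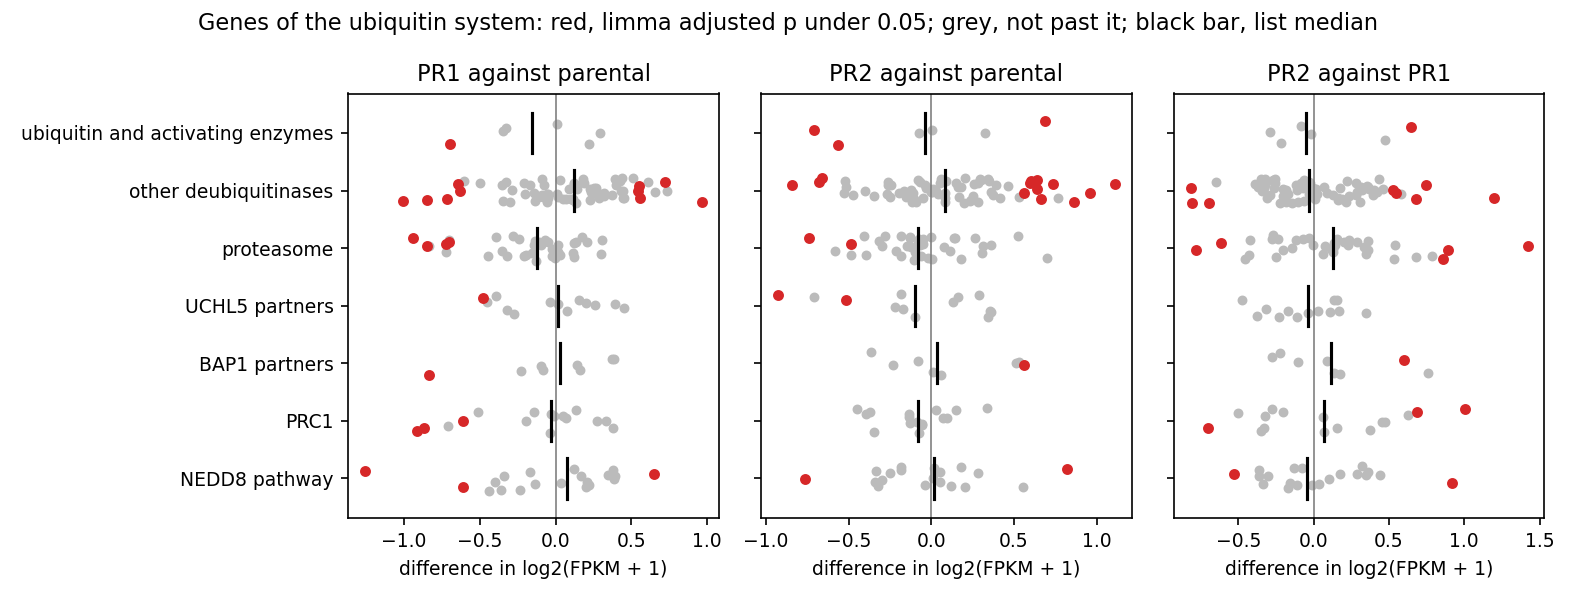
Difference in log2(FPKM + 1) of each tested gene of 7 ubiquitin-system lists (rows) in the 3 comparisons (panels). Red points passed a limma adjusted p of 0.05, grey points did not, and black bars are list medians; the medians lie near 0 in every panel, between −0.16 and 0.13.

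Among the proteins that UCHL5 works with, ADRM1, which holds it on the proteasome, had RNA levels of 163 ± 7.95, 133 ± 33.6 and 148 ± 47.9 FPKM in parental, PR1 and PR2 cells (SD, n = 3) and passed in no comparison, and neither did NFRKB, which holds UCHL5 in INO80. Of 13 tested UCHL5 partners 1 fell in PR1 against parental cells, 2 fell in PR2 and none passed in limma between the derivatives (0 at an unadjusted p under 0.05). These shares, 7.69%, 15.4% and 0%, were below those of all rows. The block by letter gave 2 rises and 1 fall in PR1 and 3 falls in PR2. No partner passed in PR2 against parental cells without parental C, PR2 B or PR2 C. The INO80 subunit TFPT fell in PR1 by 0.48 on the log2 scale, lost without 8 of the single libraries (highest limma adjusted p = 0.14). RUVBL1, an ATPase of INO80 and other complexes, fell in PR2 against parental cells by 0.93, lost without parental A, parental C, PR2 B or PR2 C (limma adjusted p reaching 0.096).

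Proteasome subunit genes fell in 4 of 38 cases and rose in none in PR1 against parental cells. In PR2 against parental cells 2 fell and none rose, and in PR2 against PR1, 3 were higher and 2 lower. With the letter as a block 8 fell in PR1, and 7 were higher and 3 lower in PR2 than in PR1. Without the block the share was below that of all rows in each comparison, at 5.26% in PR2 against parental cells and 13.2% between the derivatives. The falls in PR1 numbered 0 without PR1 B, 1 without parental B, parental C or PR1 C, and 2 without parental A. In PR2 against parental cells there were none without PR2 B or PR2 C and 1 without any one parental library or PR1 B. Quantile normalization gave 1 higher and 1 lower there, and 6 higher and 2 lower in PR2 against PR1. The latter became 2 and 1 without PR1 B, PR1 C or PR2 B. PSMD11, a subunit of the regulatory particle, was higher in PR2 than in PR1, at 80.1, 47.4 and 46.5 FPKM against 29.5, 15.1 and 18.9 (log2 difference 1.42 ± 0.29, SE, limma adjusted p = 0.0082). PSMD10, a chaperone of proteasome assembly, was lower, at 33.1 ± 1.42 against 57.8 ± 4.05 FPKM (SD, n = 3, log2 difference −0.78, limma adjusted p = 0.0050). The ATPase subunit gene PSMC5 fell in PR1 against parental cells by 0.94, lost without parental A, parental B, PR1 B or PR1 C (highest limma adjusted p = 0.10). PSMD6 fell in PR2 against parental cells by 0.74, lost without parental C, PR2 B or PR2 C (limma adjusted p reaching 0.069).

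Of 8 BAP1 partners, 1 (12.5%) passed in each comparison, below the shares of all rows. Under the block by letter 1 rose and 1 fell in PR1, 3 rose and 1 fell in PR2, and 2 were higher and none lower in PR2 than in PR1. The share in PR2 against parental cells was then above the 34.2% of all rows. ASXL1, the partner that activates BAP1, rose in PR2, at 16.3 to 19.4 FPKM against a highest parental value of 13.4 (log2 difference 0.56 ± 0.14, SE, limma adjusted p = 0.015). It was lost without parental B, parental C or PR2 C (highest limma adjusted p = 0.065). FOXK2, a transcription factor that binds BAP1, fell in PR1 to 23.8 ± 2.05 from 44.2 ± 12.3 FPKM (SD, n = 3, log2 difference −0.83, limma adjusted p = 0.015), a call lost without PR1 B (limma adjusted p = 0.056). It was higher in PR2 than in PR1 by 0.60, lost without any single library of the derivatives or parental A (limma adjusted p reaching 0.14). HCFC1, another partner of BAP1, passed in no comparison.

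Polycomb repressive complex 1 puts on the histone mark that BAP1 takes off. Of 16 tested subunit genes, 3 fell in PR1 against parental cells, none passed in limma in PR2 against parental cells (2 at an unadjusted p under 0.05), and 2 were higher and 1 lower in PR2 than in PR1. The share was 18.8% in the first and the last, near those of all rows. The block by letter gave 1 rise and 4 falls in PR1 and 1 fall in PR2, and 4 were higher and 3 lower in PR2 than in PR1. The shares in PR1 against parental cells and PR2 against PR1 were then above those of all rows (25.7% and 31.5%). CBX2, which binds methylated histone H3, stood at 8.58, 8.52 and 9.09 FPKM in parental cells, 4.36, 3.54 and 4.69 in PR1 and 9.08, 9.75 and 9.34 in PR2. PR1 was below both other groups, by a log2 difference of −0.91 against parental cells, and PR2 was higher than PR1 by 1.01 (limma adjusted p = 0.0018 and 0.00081). CBX8, its relative, fell in PR1 by 0.61 and was higher in PR2 than in PR1 by 0.68 (limma adjusted p = 0.011 and 0.0051). PHC2 was lower in PR2 than in PR1 by −0.70, lost without any single library of the derivatives or parental B (highest limma adjusted p = 0.13).

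NEDD8 is the second substrate of UCHL3. Its own row is combined with other genes and was left out. Of 20 tested genes of the NEDD8 pathway, 1 rose and 2 fell in PR1 against parental cells, and 1 rose and 1 fell both in PR2 against parental cells and in PR2 against PR1. With the letter as a block 4 rose and 3 fell in PR1, and 3 were higher and 1 lower in PR2 than in PR1. The share in PR1 against parental cells was then above the 25.7% of all rows. Without the block the shares were 15%, 10% and 10%, none above those of all rows. In PR1 against parental cells 1 call was left without parental B, parental C or PR1 C, and in PR2 against parental cells 1 without parental B, parental C, PR2 B or PR2 C. Between the derivatives 1 was left without parental C or any one of their own libraries. After quantile normalization 2 were higher and 1 lower there. GPS1, a subunit of the COP9 signalosome that removes NEDD8 from cullins, fell from 147 ± 8.37 FPKM in parental cells to 62.2 ± 14.8 in PR1 (SD, n = 3) and was at 118 ± 25.7 in PR2. Its log2 difference was −1.26 in PR1 against parental cells and 0.92 in PR2 against PR1 (limma adjusted p = 0.0028 and 0.011). The cullin gene CUL4A rose in PR2 against parental cells by 0.82 (limma adjusted p = 0.0081). Its relative CUL4B rose in PR1 by 0.65, lost without parental B, parental C or PR1 C (limma adjusted p reaching 0.096). The NEDD8 conjugating enzyme gene UBE2M fell in PR2 by 0.76, lost without parental B, parental C, PR2 B or PR2 C (highest limma adjusted p = 0.13).

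Genes whose levels were most like those of UCHL1 were taken by Pearson r of log2(FPKM + 1) over the 9 libraries, among 8540 genes with a mean of at least 5 FPKM in a group. The first 8 were LRP12 (r = 0.99), TUSC3, MAP1B, UBE2Z, EPDR1, MED24, RUNDC1 and NFE2L3 (r = 0.97). The points share their libraries and the groups that UCHL1 was chosen for, so no test is attached. MAP1B, which binds microtubules in neurons, was 1 of 3 genes compared that ranked the libraries exactly as UCHL1 did (Spearman rho of 1). It stood at 0.601, 0.348 and 1.09 FPKM in parental cells, 0.0758, 0.0334 and 0.0268 in PR1 and 9.49, 4.03 and 3.08 in PR2. TUSC3, a subunit of the oligosaccharyltransferase complex, was at 2.11 ± 0.670, 0.307 ± 0.0720 and 12.2 ± 1.20 FPKM (SD, n = 3). UBE2Z, a ubiquitin-conjugating enzyme, was higher in level and moved less, at 49.6 ± 6.16, 35.9 ± 4.79 and 73.1 ± 4.81 FPKM. With a pseudocount of 0.1, 5 of the 8 remained among the first 8. BAP1 ran the other way, at r = −0.96, the 14th most negative of 8510 genes placed on a chromosome.

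**Figure D4:**
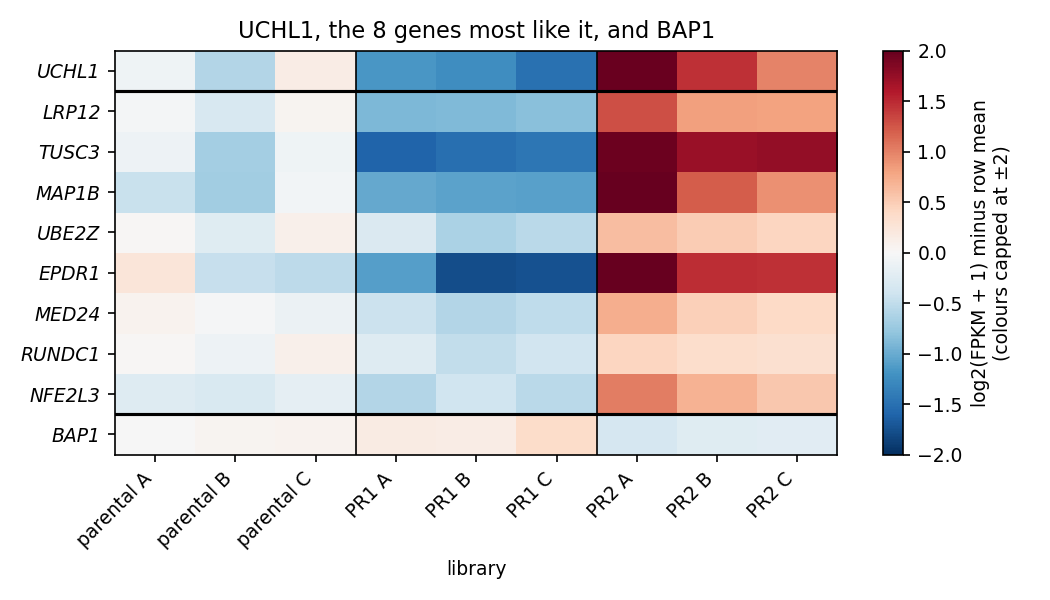
Heat map of log2(FPKM + 1) minus the row mean in each library (columns) for UCHL1, the 8 genes most like it and BAP1, with colours capped at 2 in either direction. The 8 genes are lowest in PR1 and highest in PR2 like UCHL1, and BAP1 is the reverse, over a narrower span.

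The position of these genes was looked up by symbol in RefSeq, which placed 11293 of 11450 tested single-gene rows. UCHL1 lies on chromosome 4, UCHL3 on 13, UCHL5 on 1 and BAP1 on 3. Of the 20 tested genes nearest UCHL1, 10 on either side, 4 rose and none fell in PR1 against parental cells. Of all tested rows 7.56% rose and 7.98% fell there. In PR2 against parental cells 2 rose and 2 fell (13.6% and 9.83% of all rows). Between the derivatives 2 were higher and 3 lower in PR2 than in PR1 (11% and 8.92% of all rows). APBB2, the nearest tested gene on one side, rose in PR1 by a log2 of 1.22, where UCHL1 was lower, and in PR2 by 2.12 (limma adjusted p = 0.0013 and 2.5e-05). LIMCH1, the nearest on the other side, passed in no comparison. Of the 20 neighbours of BAP1, 16 had negative differences in PR2 against PR1, with 4 lower and none higher past the threshold and a median log2 difference of −0.30 against 0.0038 over all tested rows. On chromosome 3 as a whole, 15.8% of 646 tested genes were lower and 7.59% higher in PR2 than in PR1, against 8.92% and 11% of all rows.

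Among the genes most like UCHL1, 3 of the first 8 (UBE2Z, MED24 and RUNDC1) lie on chromosome 17, which does not hold UCHL1. Of 125 placed genes with r above 0.9, a limit chosen after the values were seen, 49 lie on chromosome 17, or 39.2%, while 6.56% of the genes compared do. Without the A libraries it was 83 of 293 (28.3%). Genes picked by r share the order of groups that chose UCHL1, so these shares describe that order and are no test. Chromosome 17 genes as a whole had a median log2 difference of −0.40 in PR1 against parental cells, 0.24 in PR2 against parental cells and 0.60 in PR2 against PR1. Of 695 tested, 200 fell (28.8%) and 20 rose (2.88%) in PR1 against parental cells, against 7.98% and 7.56% of all rows. In PR2 against parental cells 160 rose (23%) and 56 fell (8.06%), against 13.6% and 9.83% of all rows. Chromosome 18 had a larger share of rises there (33.1% of 151 tested). Between the derivatives 316 were higher (45.5%) and 14 lower (2.01%) in PR2 than in PR1, against 11% and 8.92% of all rows. After quantile normalization the last counts were 338 and 16, and without the A libraries 294 and 15 of 680. Of the ubiquitin-system and marker genes above, 15 were higher in PR2 than in PR1, and 10 of these lie on chromosome 17, where 19 of the 176 tested list genes do. They include GPS1, FOXK2, CBX2, CBX8, PSMD11, PSMC5, PSMD3 and UBB. The part of chromosome-wide shifts in these single-gene results was not tested.

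**Figure D5:**
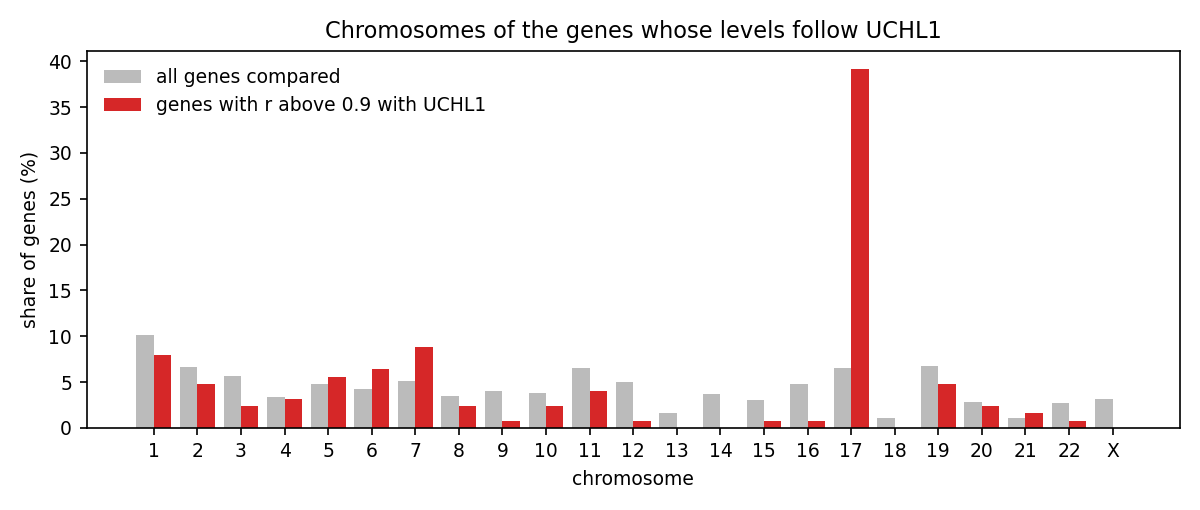
Share of genes on each chromosome (bars, percent, from 0) among all genes compared with UCHL1 (grey) and among the 125 with r above 0.9 (red). Chromosome 17 holds 39.2% of the second set and 6.56% of the first.

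Over all 9 libraries, 11263 to 11629 rows reached 1 FPKM. The number of reads is not given in the sources used here, and single-fragment steps of low genes put the relative depth between 0.759 and 1 of the deepest library. UCHL1 ranked low in parental and PR1 libraries and nearer the middle in PR2. Of tested rows, 16.7%, 8.73% and 21.5% had lower values in parental A, B and C, and 3.61%, 2.46% and 1.69% in PR1. In PR2 the shares were 55.5%, 45.9% and 34.4%. No read counts are given and only relative depth was estimated, so counting error was not computed for the low PR1 values of UCHL1 or for ratios to them.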

How the data were processed

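RNA sequencing libraries of LC-2/ad, PR1 and PR2 cells (9 in all, 3 per group) were grouped by their titles. The deposited table gives 1 FPKM value per gene and library. The unit is inferred, since the header names none. Per the submitters' processing notes, the authors used TopHat2 2.0.14, Cufflinks 2.2.1 and Cuffdiff 2.2.1 with the builds GRCh37 and hg19. The annotation is not given in the sources used here. RefSeq was used only for symbols, chromosomes, gene order and the promoter windows of GRCh38.p14.

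Values were analysed as log2(FPKM + 1) for rows reaching 1 FPKM in 3 or more libraries (12011 rows) with limma 3.58.1 in R 4.3.3. The model had 1 mean per group over all 9 libraries and an intensity trend, with two-sided p-values and Benjamini-Hochberg adjustment over all rows. Confidence intervals are at 95%. The fit was tested on simulated data. UCHL1 was not tested. Members and gene lists were chosen with earlier results of these data known.

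Named genes are the members, the changed gene with the largest rise and the largest fall in each of 10 lists and each comparison (a mean of at least 1 FPKM in the higher group), and the 8 genes most like UCHL1. Binding partners and markers named beside a member were added, and CBX8, APBB2, LIMCH1, MAP2 and the chromosome 17 genes were named after their values were seen. List members in combined rows were left out.

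The letters were checked for pairing by the correlation, across genes, of deviations from group means. Between PR1 and parental libraries r was 0.31 for A, 0.48 for B and 0.16 for C. Between PR2 and PR1 it was 0.53, 0.54 and 0.25, so the letters pair libraries in both comparisons. Between PR2 and parental libraries it was 0.30, 0.42 and 0.014. There A and B were related about as in PR1 against parental cells, and C was not. Alternatives were a pseudocount of 0.1, a filter at 5 FPKM, no filter, the letter as a block, quantile normalization, no intensity trend, and leaving out each library or the 3 A libraries. The chromosome 17 alternatives were chosen after seeing the data.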

Additional observations from a re-analysis of the deposited data

How the results depend on the processing

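The sign of the UCHL1 differences was the same in all 16 alternatives, which says little. Its groups do not overlap, so another pseudocount or filter, the block or libraries left out could not turn the sign. The UCHL1 difference moved by more than 1 SD with the pseudocount of 0.1, to −2.01 in PR1 against parental cells and 4.02 in PR2 against PR1. Leaving out single libraries gave −1.33 to −0.96, 1.41 to 1.90 and 2.53 to 3.03 in PR1 against parental, PR2 against parental and PR2 against PR1. UCHL3 in PR1 against parental cells changed sign without the A libraries (−0.10) and ranged from −0.24 to 0.21 without single libraries, and UCHL5 from −0.25 to 0.12; neither passed (limma). UCHL3 passed limma with the letter as a block in PR2 against parental cells and in PR2 against PR1 (−0.63 and −0.67, adjusted p = 0.012 and 0.011). In the first, the C libraries were hardly related (r = 0.014), while A and B were (0.30 and 0.42). UCHL3 passed without the 3 A libraries too (−0.79 and −0.69), and single libraries left out gave −0.93 to −0.45 and −0.96 to −0.40. The block changed no other call of the tested members. BAP1 in PR2 against parental cells passed without a filter (−0.31, limma adjusted p = 0.048). In PR2 against PR1 it missed the threshold, at −0.49, when the A libraries were left out (limma adjusted p = 0.062) and ran from −0.54 to −0.43 without single libraries (limma adjusted p from 0.030 to 0.084). The changed deubiquitinases numbered 10, 13 and 8 in the 3 comparisons, 6, 8 and 5 at 5 FPKM, where fewer genes are tested, and 21, 23 and 14 with the replicate block. They ran from 2 to 11, 5 to 15 and 3 to 9 without single libraries. The cause of the other moves was not tested. Of 73 calls on list genes, 27 were kept without each single library in turn, 61 without the A libraries, 65 after quantile normalization and 73 with the block, and none changed sign. Only relative depth was estimated, so counting error of low values such as UCHL1 in PR1 was not computed.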
